A study of Mus musculus with 18 samples.

Results

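Macrophages that had received interferon-gamma (IFNg) together with lipopolysaccharide (LPS) were compared with macrophages that had received IFNg together with hypoxia. The members are the 6 libraries whose sample titles name these combinations, 3 for each, out of 18 libraries in 6 groups, and all genes of the deposited count tables were used. All were bulk RNA sequencing libraries of wild-type bone-marrow-derived macrophages of the mouse, that is, cells of marrow origin differentiated in the dish. The first group was treated with IFNg and LPS for 18 h and the second with IFNg and hypoxia for 18 h, so IFNg was present in both. A further group of 3 libraries, treated for 18 h with IFNg alone, is given beside them as the level that both share. The doses, the oxygen level, the mouse strain and the number of animals are not stated in the labels, and no group received LPS or hypoxia without IFNg. Whether replicates are separate mice or dishes is not stated, so all p-values describe the spread among these libraries, which may be technical.

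IFNg signals through its receptor and the JAK kinases and prepares macrophages to present antigen and to kill microbes. LPS, a component of the outer membrane of Gram-negative bacteria, is recognised by Tlr4 with its co-receptors Cd14 and Ly96 and acts through NF-kappaB, MAP kinases and a branch that induces type I interferon. Under low oxygen the prolyl hydroxylases of the Egln family no longer mark the alpha subunits of the hypoxia-inducible factors (HIF) for degradation by the Vhl complex, and HIF then binds a short core sequence in its target genes, many of which serve glucose use, oxygen supply and matrix synthesis.

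The LPS libraries held 14507644 to 18470650 counts and the hypoxia libraries 12855923 to 16608853. Replicates differed beyond counting noise, with a chi-square over its degrees of freedom of 20.9 to 50.6 with LPS and 11.9 to 14.6 with hypoxia. The first principal component of the 6 libraries separated the groups, with LPS at -64.6 to -46.1 and hypoxia at 53.1 to 57.9. LPS library 3 stood apart on the second component, at 61.4, against -35.1 and -34.4 for the other LPS libraries and -11.6 to 14.8 for hypoxia. A gene's GC content is the share of G and C bases in its longest protein-coding transcript. Its Spearman correlation over genes was taken with each library's deviation from the other 2 of its group. For LPS libraries 1, 2 and 3 it was 0.33, 0.1 and -0.34. With the log2 fold change of LPS over hypoxia it was -0.02. What set LPS library 3 apart was not tested. Counts of list members below that change by more than 1.5 times when it or another library is left out are also given without that library. The cultures carried macrophage markers: Adgre1, which encodes F4/80, averaged 2803 ± 274 CPM with LPS and 2745 ± 79.3 CPM with hypoxia (SD, n = 3 each), and the T cell genes Cd3e, Cd3d and Cd3g and the B cell gene Ms4a1 had 0 counts in both groups. Other markers of these cell types did have counts, and some differed between the groups. The B cell list summed to 63.3 to 109.6 CPM with LPS and 249.6 to 282.9 CPM with hypoxia. The T cell list summed to 121.6 to 211.9 CPM with LPS and 88.6 to 108.2 CPM with hypoxia. Of 12 macrophage markers 2 were higher and 6 lower with LPS. In bulk samples, fewer cells of a type and less RNA per cell cannot be told apart.

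The comparison sets a bacterial signal against low oxygen in macrophages that had all received IFNg. Of 11563 genes tested with edgeR's quasi-likelihood test, 3467 (30.0%) had an adjusted p under 0.05. Of these, 1669 (14.4%) were higher with LPS and 1798 (15.5%) were lower with LPS than with hypoxia. A difference of at least 2-fold was found for 1485 genes (12.8%), of which 715 were higher and 770 lower with LPS. The libraries of the groups did not overlap for 4870 genes (42.1%). Against IFNg alone, 2348 genes (20.3%) were called with LPS and 2918 (25.2%) with hypoxia, and both counts share the IFNg libraries. Without LPS library 3 the test called 3233 genes, 1444 of them at least 2-fold different. The split depends on how libraries are scaled: when libraries were scaled by the totals that the authors' RPKM values imply, 2457 genes were higher and 1319 lower with LPS, and the median over all genes shifted by 0.168 on the log2 scale. Directions below are those under TMM, and the RPKM-total split of a list is given where it moves the share of higher calls by over 10 percentage points.

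**Figure D1:**
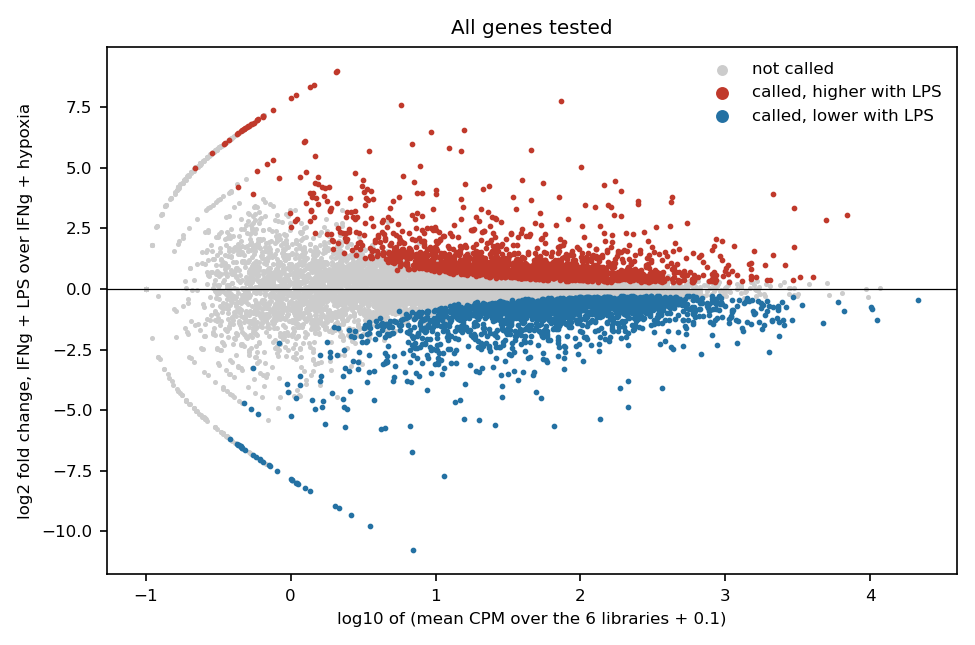
Each point is 1 of the 11563 genes tested, with the log2 fold change of IFNg with LPS over IFNg with hypoxia on the y axis and the log10 of the mean CPM over the 6 libraries plus 0.1 on the x axis. Red points (1669) are higher with LPS and blue points (1798) lower with LPS at an adjusted p under 0.05. The arcs at the left edge are genes with 0 counts in 1 of the groups, whose fitted fold change is no bound, and most points of large fold change lie below 100 CPM.

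Levels are given as CPM, the usual library-size-scaled count, here over tested genes with TMM factors, for libraries 1, 2 and 3 of each group in that order or as mean ± SD of 3 libraries. Every log2 fold change is LPS over hypoxia with its standard error (SE), and every adjusted p is edgeR's after Benjamini-Hochberg adjustment over all 11563 genes, whose median log2 fold change was 0.01. Gene positions are mm10 coordinates. Counts of called list members stand beside the shares over all tested genes: 30.0% called, 14.4% higher and 15.5% lower with LPS.

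**Figure D2:**
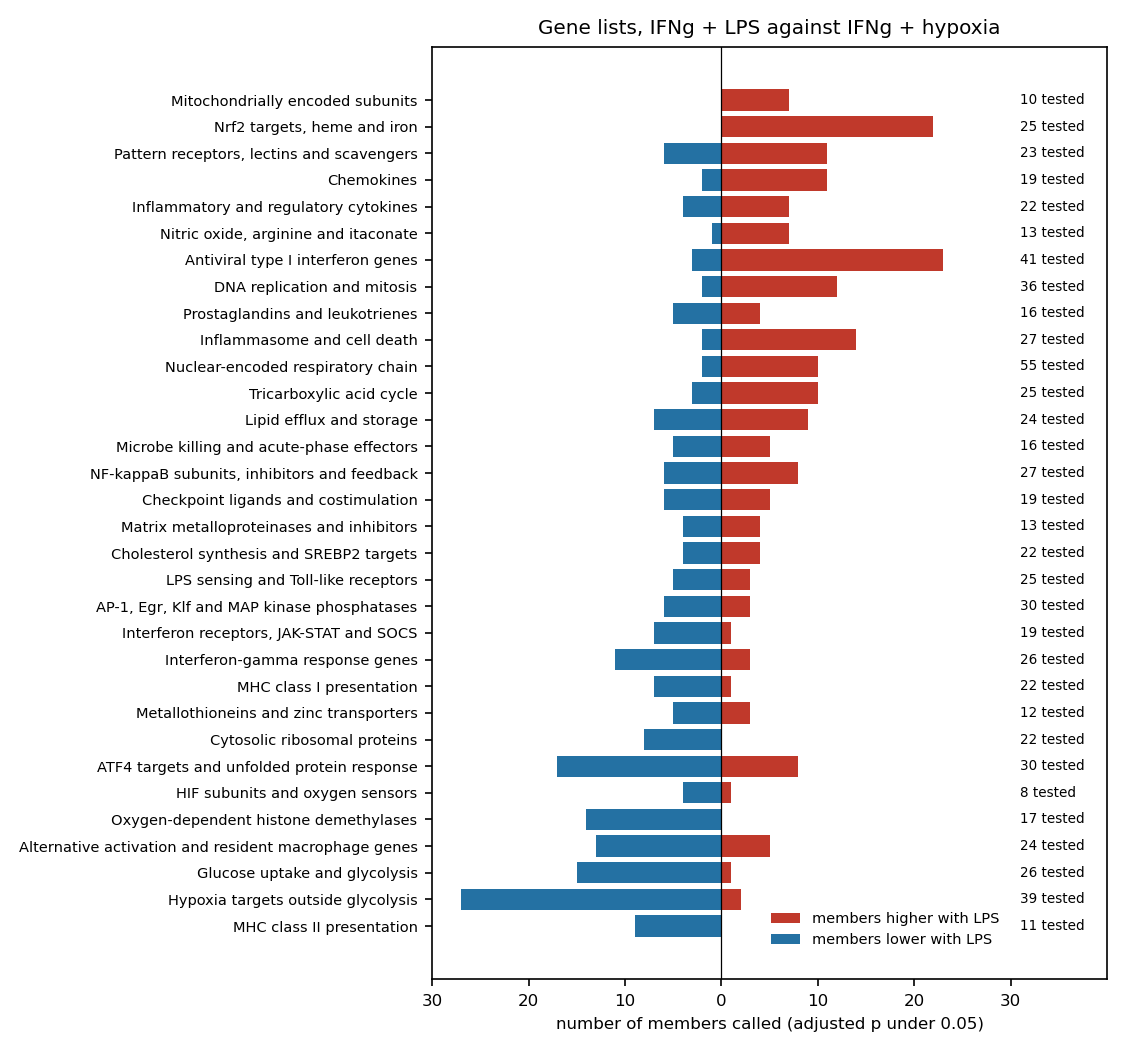
Bars give the number of members of each of 32 gene lists that were higher with LPS (red, to the right) or lower with LPS (blue, to the left) at an adjusted p under 0.05, on a linear axis from 0, with the number of members tested at the right. Lists are ordered by the median log2 fold change of their tested members, with mitochondrially encoded subunits (2.90) at the top and MHC class II (-1.28) at the bottom.

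The genes with the largest differences in favour of LPS included receptors, chemokines and redox genes. By the rule used (adjusted p under 0.05, at least 10 CPM in the higher group, no overlap between libraries), the 10 furthest up were Clec4n, Fpr1, Slc7a11, Ednrb, Nqo1, Wnk2, Fpr2, Ccl7, Lipn and Ccl2. Clec4n (ENSMUSG00000023349, chromosome 6, 123229843 to 123247021), which encodes the fungal mannan receptor dectin-2, had 172, 137.5 and 132 CPM with LPS, against 0.596, 1.53 and 0 CPM with hypoxia (log2 fold change 7.74 ± 0.57, adjusted p = 3.97e-08). Without hypoxia library 2, the highest of its group, the log2 fold change of Clec4n was 8.81. Fpr1 and Fpr2 encode receptors for formylated bacterial peptides. Fpr1 had 14.9, 13.1 and 5.92 CPM with LPS and 2 counts in all 3 hypoxia libraries together, a ratio of 232.4 with a 95% counting interval of 64.1 to 1924. Fpr2 had 94.8, 98.5 and 76.4 CPM with LPS, against 1.32, 2.64 and 1.24 CPM with hypoxia (log2 fold change 5.72 ± 0.33, adjusted p = 1.79e-11), with all LPS libraries far above all hypoxia libraries. Ednrb, an endothelin receptor gene, averaged 18.1 ± 5.68 CPM with LPS and 0.177 ± 0.306 CPM with hypoxia, Wnk2, a kinase gene, 24.0 ± 14.4 CPM with LPS and 0.407 ± 0.398 CPM with hypoxia, and Lipn, a lipase gene, 15.0 ± 3.65 CPM with LPS and 0.423 ± 0.378 CPM with hypoxia. Low counts with hypoxia made these fitted values depend on single libraries. Without hypoxia library 1 the log2 fold change was 6.83 for Wnk2, against 5.80 with it, and 5.70 for Lipn, against 5.06. For Ednrb all 8 hypoxia counts came from library 1 and for Fpr1 both came from library 2, so without that library the ratio has no upper limit.

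The genes with the largest differences in favour of hypoxia were Cox4i2, Vldlr, Hepacam2, Egln3, Adm, Plod2, Rcor2, Ets1, Selenbp1 and Arg1. Cox4i2 (ENSMUSG00000009876, chromosome 2, 152754173 to 152765037), a respiratory chain subunit that replaces its sister isoform under low oxygen, had 0 counts in the 3 LPS libraries and 20.5, 12.9 and 7.88 CPM with hypoxia, at least 234.5-fold lower with LPS when 3 counts are taken as the floor over the group. Selenbp1 (ENSMUSG00000068874, chromosome 3, 94933056 to 94944758), a selenium-binding protein gene, had 6.43, 8.29 and 4.39 CPM with LPS, against 299, 229 and 268 CPM with hypoxia (log2 fold change -5.37 ± 0.26, adjusted p = 1.33e-13). In IFNg alone Selenbp1 had 17.1, 14.7 and 21.4 CPM, above every LPS library and below every hypoxia library. Ets1, a transcription factor gene, averaged 0.707 ± 0.744 CPM with LPS and 30.7 ± 5.97 CPM with hypoxia. Rcor2, which encodes a corepressor, averaged 0.893 ± 0.656 CPM with LPS and 39.0 ± 3.18 CPM with hypoxia. Without LPS library 2 the log2 fold change of Ets1 was -6.47, against -5.38 with it. Vldlr (5 counts) and Hepacam2 (6 counts) had all their LPS counts in library 1. The lowest hypoxia library of each of the 10 lay above its highest LPS library, which the rule required.

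Of 25 tested components that sense LPS and other microbial patterns through Toll-like receptors, 3 were higher and 5 lower with LPS (median -0.11), shares near those of all tested genes (14.4% and 15.5%). Tlr4, the LPS receptor, had 224, 349 and 330.3 CPM with LPS, against 271, 329 and 346 CPM with hypoxia, and the groups overlapped (log2 fold change -0.07 ± 0.15, 95% interval -0.38 to 0.24, adjusted p = 0.788). The Tlr4 value changed sign with RPKM totals (0.10), without LPS library 1 (0.14) and without hypoxia library 3 (0.01), and it missed the threshold in each. Cd14, whose product hands LPS to Tlr4, had 766, 638 and 556 CPM with LPS, against 264, 222 and 174 CPM with hypoxia (log2 fold change 1.57 ± 0.13, adjusted p = 4.56e-10), and 150.3, 151 and 142 CPM in IFNg alone. Ly86, which encodes the partner of Cd180, was lower with LPS, at 132 ± 3.61 CPM with LPS and 733 ± 43.5 CPM with hypoxia (log2 fold change -2.48 ± 0.13, adjusted p = 4.88e-14), whereas Cd180 itself was higher (0.52, adjusted p = 0.00587). The inhibitory kinase gene Irak3 was higher (0.77, adjusted p = 0.00497), and Tlr6 (-0.93, adjusted p = 2.6e-05) and the adaptor gene Ticam1 (-0.63, adjusted p = 6.19e-05) were lower with LPS.

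NF-kappaB subunits and their inhibitors split, with 8 of 27 members higher and 6 lower (median -0.01, 51.9% called against 30.0% of all tested genes). Traf1, an adaptor of TNF receptors, had 141, 142 and 70.5 CPM with LPS, against 38.3, 24.8 and 36.5 CPM with hypoxia, and the groups did not overlap (log2 fold change 1.82 ± 0.27, adjusted p = 5.29e-05). The kinase gene Ikbke (1.64, adjusted p = 7.16e-05) and Nfkb2, which encodes the p100 subunit (0.69, adjusted p = 0.000229), were also higher with LPS. Nfkbiz, an inhibitor family member that acts in the nucleus, was lower with LPS at 18.5 ± 2.06 CPM with LPS and 60.0 ± 6.83 CPM with hypoxia (log2 fold change -1.69 ± 0.19, adjusted p = 6.15e-08), as were Rel (-1.09, adjusted p = 7.18e-05) and Cyld, a deubiquitinase that restrains the pathway (-0.67, adjusted p = 2.61e-05).

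Of 22 tested cytokine genes 7 were higher and 4 lower with LPS (median 0.74, 50.0% called against 30.0% of all tested genes). Of the 30 listed, 8 had too few counts or no match. Tnf (ENSMUSG00000024401, chromosome 17, 35199381 to 35202007), the tumour necrosis factor gene, had 107, 97.5 and 72.6 CPM with LPS, against 17.4, 12.4 and 14.6 CPM with hypoxia, and 29.4, 26.5 and 23.4 CPM in IFNg alone. No LPS library overlapped the others, and the hypoxia libraries lay below those of IFNg alone (log2 fold change 2.64 ± 0.22, adjusted p = 7.94e-10, with 1.80 for LPS and -0.84 for hypoxia over IFNg alone, adjusted p = 3.9e-07 and 0.00511). Il1b (ENSMUSG00000027398, chromosome 2, 129364570 to 129371139), the interleukin-1 beta gene, had 76.9, 61.6 and 56.7 CPM with LPS, against 9.41, 4.34 and 5.71 CPM with hypoxia (log2 fold change 3.30 ± 0.37, adjusted p = 4.89e-06). Its antagonist Il1rn was higher as well, at 175 ± 44.5 CPM with LPS and 29.3 ± 5.22 CPM with hypoxia (2.58, adjusted p = 1.92e-07).

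Transcripts of Il6 and Il12b stayed low in both groups. Il6 had 2.78, 2.80 and 1.32 CPM with LPS and 3 counts over the 3 hypoxia libraries, a ratio of 31.4 with a 95% counting interval of 10.5 to 154.5 (adjusted p = 0.000294), and all 3 counts came from hypoxia library 1. Il12b, the shared subunit of IL-12 and IL-23, had 3.13, 2.47 and 1.88 CPM with LPS, against 0, 0 and 0.463 CPM with hypoxia (adjusted p = 0.0143), and its 6 hypoxia counts all came from library 3. This call was lost without hypoxia library 1 (adjusted p = 0.0564) or library 2 (0.0533). Il10, an anti-inflammatory cytokine gene, had 1.56, 0 and 2.51 CPM with LPS, against 3.64, 1.79 and 3.55 CPM with hypoxia, with overlapping groups, and missed the threshold (log2 fold change -1.15 ± 0.84, adjusted p = 0.328). Il16, which attracts CD4 T cells (-1.72, adjusted p = 2.64e-07), Il15, which sustains NK and memory T cells (-1.28, adjusted p = 0.000128), and the immunosuppressive Tgfb1 (-0.60, adjusted p = 0.00289) were lower with LPS.

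Chemokine genes followed the cytokines, with 11 of 19 members higher and 2 lower with LPS (median 1.18, 68.4% called against 30.0% of all tested genes). Ccl2 (ENSMUSG00000035385, chromosome 11, 82035571 to 82037453), which encodes the main attractant of monocytes, had 175, 186 and 229.8 CPM with LPS, against 6.29, 2.89 and 8.65 CPM with hypoxia (log2 fold change 5.04 ± 0.46, adjusted p = 4.92e-07). In IFNg alone Ccl2 had 45.1, 27.9 and 28.5 CPM, above every hypoxia library and below every LPS library. Ccl7, its neighbour on the chromosome, averaged 29.0 ± 12.9 CPM with LPS and 0.574 ± 0.597 CPM with hypoxia (5.67, adjusted p = 0.000493), with 6.65 without hypoxia library 2. Ccl5, a T cell attractant, had 946, 619 and 709.5 CPM with LPS, against 355, 323 and 251 CPM with hypoxia (log2 fold change 1.29 ± 0.14, adjusted p = 3.92e-08), and every LPS library lay above every hypoxia library.

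The ligands of Cxcr3, which draw activated T cells, differed less. Cxcl10 had 549, 644 and 613 CPM with LPS, against 399, 435 and 382 CPM with hypoxia (log2 fold change 0.57 ± 0.20, adjusted p = 0.0401), a call that was lost without LPS library 2 (adjusted p = 0.117) or 3 (0.104), without any 1 of the hypoxia libraries (0.063 to 0.12), with no filter (0.0966), with the replicate block (0.0603) and with DESeq2 (0.0811). Cxcl9, named after its values were seen, had 1469.8, 1542 and 2034 CPM with LPS, against 1448, 1522 and 1532 CPM with hypoxia, and missed the threshold (log2 fold change 0.16 ± 0.19, adjusted p = 0.559). The CC chemokine genes Ccl6 (-1.96, adjusted p = 8.17e-05) and Ccl9 (-1.16, adjusted p = 0.00276) were lower with LPS. For Ccl6 the fold change was -2.55 without LPS library 3, which held 37.4 CPM.

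Cxcl2, a neutrophil attractant, was low in both groups, with 2.32, 2.36 and 2.44 CPM with LPS, against 0.397, 0 and 0 CPM with hypoxia (log2 fold change 3.94 ± 0.70, adjusted p = 8.72e-05), so that all its hypoxia counts came from library 1. Its promoter is shown because letters of the kind bound by NF-kappaB are dense in it. The sequence is RefSeq's on GRCm38.p6, from 250 bases before to 50 after the transcript start (chr5:90903649-90903948, plus strand), written 5′ to 3′ with matches to GGG and TTCC with any 3 bases between them, on either strand, in capitals. There are 3 matches, of which 2 overlap each other.
Cxcl2: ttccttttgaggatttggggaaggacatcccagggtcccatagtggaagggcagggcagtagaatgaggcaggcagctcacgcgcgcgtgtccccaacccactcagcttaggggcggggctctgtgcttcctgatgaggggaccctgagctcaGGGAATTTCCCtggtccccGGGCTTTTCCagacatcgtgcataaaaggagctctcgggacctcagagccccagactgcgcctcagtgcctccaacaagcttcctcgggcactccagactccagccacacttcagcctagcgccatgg
This motif was found in 4 of 12 promoters of the chemokine list (33.3%), 8 of 22 of the cytokine list (36.4%) and 13 of 31 of the NF-kappaB list (41.9%), against 6.41% of the 11718 promoters of all tested genes. In promoters of genes at least 2-fold higher with LPS it was present in 6.66%, and in those at least 2-fold lower in 7.20%. These shares describe letters and not bound sites.

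**Figure D3:**
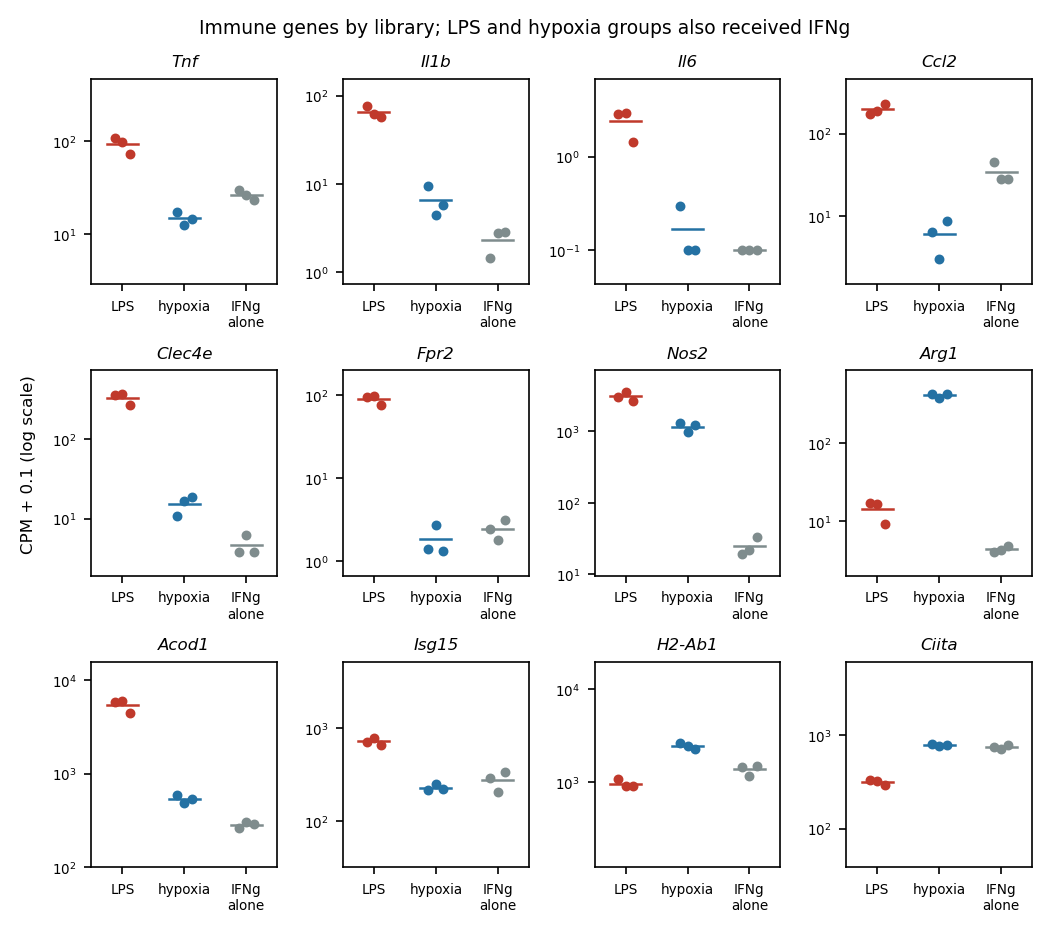
CPM plus 0.1 on a log axis for 12 immune genes, with points for the 3 libraries and a line for the mean of IFNg with LPS (red), IFNg with hypoxia (blue) and IFNg alone (grey). Tnf, Il1b, Il6, Ccl2, Clec4e, Fpr2, Nos2, Acod1 and Isg15 lie higher with LPS and Arg1, H2-Ab1 and Ciita lower. LPS and hypoxia libraries do not overlap in any of the 12 panels, as held for 42.1% of all tested genes. For Fpr2, Ccl2 and Arg1 the naming rule required no overlap.

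Receptors for microbial patterns and scavenger receptors counted 11 higher and 6 lower of 23 (median 1.33). Clec4d and Clec4e, which encode C-type lectins that recognise glycolipids of mycobacteria, were both higher with LPS. Clec4e had 357, 367 and 272 CPM with LPS, against 10.7, 16.4 and 18.8 CPM with hypoxia (log2 fold change 4.45 ± 0.21, adjusted p = 3.55e-13). Clec4d had 459, 434 and 483 CPM with LPS, against 38.5, 38.5 and 45.4 CPM with hypoxia (log2 fold change 3.49 ± 0.14, adjusted p = 5.21e-16). Neither gene overlapped between the groups. Clec4n, Clec4d and Clec4e are members of 1 gene family, so reads could be shared between them, and how the authors' counting treated such reads is not given. The scavenger receptor gene Cd36 averaged 1782 ± 64.4 CPM with LPS and 516 ± 11.7 CPM with hypoxia (log2 fold change 1.79 ± 0.11, adjusted p = 1.42e-12). Lower with LPS were the lipoprotein receptor gene Scarb1 (-1.26, adjusted p = 2.36e-08), the lipid-sensing receptor gene Trem2 (-1.40, adjusted p = 1.75e-07) and the inhibitory lectin gene Clec12a (-0.97, adjusted p = 9.18e-07).

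Nos2 and Arg1, enzymes that use arginine, separated the groups in opposite directions. Nos2 (ENSMUSG00000020826, chromosome 11, 78920787 to 78960254), which encodes the nitric oxide synthase of activated macrophages, had 3040.2, 3539.5 and 2694 CPM with LPS, against 1287, 970.0 and 1209 CPM with hypoxia, and 19.0, 22.1 and 33.6 CPM in IFNg alone. All LPS libraries lay above all hypoxia libraries, and both lay far above IFNg alone (log2 fold change 1.42 ± 0.21, adjusted p = 2.84e-05, with 6.96 for LPS and 5.54 for hypoxia over IFNg alone). Arg1 (ENSMUSG00000019987, chromosome 10, 24915221 to 24927484), the arginase that competes with it for arginine, had 16.9, 16.5 and 9.20 CPM with LPS, against 427.5, 383 and 430.3 CPM with hypoxia, and 3.86, 4.12 and 4.72 CPM in IFNg alone. The hypoxia libraries lay far above the LPS libraries, which in turn lay above IFNg alone (log2 fold change -4.86 ± 0.30, adjusted p = 9.15e-10). The second arginase gene, Arg2, named after its values were seen, was low and went the same way as Nos2, with 6.03, 6.37 and 6.06 CPM with LPS, against 0.331, 0 and 0.695 CPM with hypoxia (log2 fold change 4.11 ± 0.74, adjusted p = 0.00028). Per kilobase of coding width, Nos2 stood at 899.9 CPM per kb with LPS and 336 CPM per kb with hypoxia, and Arg1 at 14.6 CPM per kb with LPS and 425.5 CPM per kb with hypoxia, so the order of the levels of the 2 transcripts was opposite in the groups.

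Of 13 members of the nitric oxide, arginine and itaconate list, 7 were higher and 1, Arg1, lower with LPS (median 0.72). Acod1 (ENSMUSG00000022126, chromosome 14, 103046977 to 103056573), which makes itaconate from a Krebs cycle intermediate, had 5879, 5968 and 4417 CPM with LPS, against 585, 484 and 529 CPM with hypoxia (log2 fold change 3.35 ± 0.14, adjusted p = 1.54e-15). In IFNg alone it had 260.5, 301.5 and 291 CPM, below every hypoxia library, and the LPS libraries lay above both. Ass1, which rebuilds arginine from citrulline, had 182.5, 170.3 and 83.1 CPM with LPS, against 22.6, 17.3 and 18.8 CPM with hypoxia (log2 fold change 2.89 ± 0.30, adjusted p = 7.51e-07), with LPS library 3 the lowest of its group.

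Prostaglandin and leukotriene genes were divided, with 4 of 16 members higher and 5 lower with LPS (median 0.36, 5 and 4 with RPKM totals). Ptgs2 (ENSMUSG00000032487, chromosome 1, 150100031 to 150108227), the inducible cyclooxygenase, had 464, 536 and 406 CPM with LPS, against 106.5, 116 and 136 CPM with hypoxia (log2 fold change 1.97 ± 0.15, adjusted p = 6.87e-10). Ptgs1, the constitutive cyclooxygenase, had 7.18, 9.06 and 4.25 CPM with LPS, against 77.0, 86.2 and 58.4 CPM with hypoxia (log2 fold change -3.42 ± 0.48, adjusted p = 4.24e-05). The 2 isoforms did not overlap between groups and moved in opposite directions. Ptges, the inducible prostaglandin E synthase, averaged 13.8 ± 3.33 CPM with LPS and 0.941 ± 1.09 CPM with hypoxia (adjusted p = 0.000738) and the prostacyclin receptor gene Ptgir 16.4 ± 6.04 CPM with LPS and 4.3 ± 0.656 CPM with hypoxia (1.93, adjusted p = 5.54e-05). Thromboxane synthase Tbxas1 (-1.08, adjusted p = 2.44e-08) and Alox5ap, which presents substrate to the leukotriene enzyme (-0.76, adjusted p = 7.58e-06), were lower with LPS. For Ptges the fold change was 3.31 without hypoxia library 1 and 5.39 without library 2, against 3.97 with both.

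Among effectors of microbe killing, 5 of 16 members were higher and 5 lower with LPS (median 0.02), or 3 higher without hypoxia library 3 and 3 lower without hypoxia library 1. Cybb, the membrane subunit of the phagocyte oxidase, had 1703, 2125 and 2296 CPM with LPS, against 903, 1020.5 and 974 CPM with hypoxia (log2 fold change 1.08 ± 0.13, adjusted p = 1.91e-07). Slc11a1, a metal transporter of the phagosome (0.92, adjusted p = 2.71e-06), and the acute-phase gene Saa3, at 105 ± 12.6 CPM with LPS and 5.16 ± 3.0 CPM with hypoxia (4.37, adjusted p = 8.31e-06), were also higher. Mpeg1, which encodes a pore-forming protein, averaged 7594.5 ± 945 CPM with LPS and 12594 ± 338 CPM with hypoxia and was lower with LPS (-0.73, adjusted p = 5.45e-06).

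Genes of the inflammasome and of cell death counted 14 higher and 2 lower of 27 (median 0.32), or 1 lower with RPKM totals or without LPS library 1. The survival gene Bcl2l1 averaged 54.0 ± 6.42 CPM with LPS and 19.5 ± 3.22 CPM with hypoxia (log2 fold change 1.47 ± 0.18, adjusted p = 2.97e-07). Nlrc4, a sensor of bacterial flagellin and secretion systems, averaged 37.7 ± 6.93 CPM with LPS and 14.1 ± 2.15 CPM with hypoxia (log2 fold change 1.42 ± 0.22, adjusted p = 9.38e-06). Bid, a link between caspase-8 and mitochondria, was higher (1.06, adjusted p = 8.83e-06) and the pro-death gene Bcl2l11 lower (-1.02, adjusted p = 0.00118). Ripk1 was lower (-0.40, adjusted p = 0.0126), but not without LPS library 1 (-0.27, adjusted p = 0.124) or with RPKM totals (-0.23, adjusted p = 0.163).

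Antiviral genes of the type I interferon response were higher with LPS in 23 of 41 members and lower in 3 (median 0.56). Oasl1 (ENSMUSG00000041827, chromosome 5, 114923240 to 114937915), a member of the oligoadenylate synthetase family, had 688.5, 762 and 673 CPM with LPS, against 119, 118 and 113 CPM with hypoxia (log2 fold change 2.60 ± 0.16, adjusted p = 4.15e-12). Isg15 (ENSMUSG00000035692, chromosome 4, 156199424 to 156200818), the ubiquitin-like modifier, had 716, 793 and 660.1 CPM with LPS, against 216, 249 and 221 CPM with hypoxia (log2 fold change 1.66 ± 0.14, adjusted p = 7.94e-10). Rsad2, which encodes viperin, had 371, 523 and 535 CPM with LPS, against 135.5, 159 and 138 CPM with hypoxia (log2 fold change 1.73 ± 0.15, adjusted p = 2.18e-09). In IFNg alone Oasl1 had 103, 144 and 131 CPM, within or near the range of the hypoxia libraries. The same held for Rsad2, at 127, 130.4 and 162 CPM. The inducing factor Irf7 averaged 2494 ± 265 CPM with LPS and 1262 ± 47.4 CPM with hypoxia (0.98, adjusted p = 3.34e-06) and Ifit1 510.1 ± 53.5 CPM with LPS and 222 ± 41.1 CPM with hypoxia (1.2, adjusted p = 2.49e-07). Samd9l (-1.17, adjusted p = 2.25e-08) and Ifi203 (-0.71, adjusted p = 0.000168) were lower with LPS. Members of the Ifit and Ifi200 families resemble each other, so their reads could be shared.

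The promoter of Isg15 is printed since it holds repeated letters of the kind that interferon-regulated factors bind (chr4:156200769-156201068, minus strand, RefSeq, GRCm38.p6). Capitals mark 3 overlapping matches to 2 runs of GAAA with any 2 bases between them, searched on both strands.
Isg15: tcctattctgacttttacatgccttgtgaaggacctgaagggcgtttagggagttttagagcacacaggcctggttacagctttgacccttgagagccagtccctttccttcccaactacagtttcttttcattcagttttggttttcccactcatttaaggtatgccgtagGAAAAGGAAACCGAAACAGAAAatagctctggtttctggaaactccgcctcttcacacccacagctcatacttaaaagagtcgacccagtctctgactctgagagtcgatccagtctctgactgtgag
These letters were present in 19 of 39 promoters of the antiviral list (48.7%), in 10 of 18 of the IFNg response list (55.6%) and in 3.36% of the promoters of all tested genes. In promoters of genes at least 2-fold higher with LPS the share was 3.05%, and in those at least 2-fold lower 4.76%. The GC content of the promoters was 50.9% in the antiviral list, 52.4% in the IFNg response list and 60.4% over all tested genes. The shares with the motif too describe letters only.

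Genes known for the response to IFNg itself were lower with LPS more often than higher: 11 of 26 members were lower and 3 higher (median -0.22), or 10 lower and 6 higher with RPKM totals. Gbp2b (ENSMUSG00000040264, chromosome 3, 142594847 to 142619179), of the guanylate-binding proteins that attack vacuoles of microbes, had 429.9, 498 and 744 CPM with LPS, against 3183, 3409.5 and 3712 CPM with hypoxia. IFNg alone lay between, at 1963, 1898 and 1962.5 CPM (log2 fold change -2.62 ± 0.16, adjusted p = 1.21e-11, with -1.80 for LPS and 0.82 for hypoxia over IFNg alone). Wars, the tryptophanyl-tRNA synthetase, had 494.5, 491 and 472 CPM with LPS, against 1207, 1194 and 1189 CPM with hypoxia (log2 fold change -1.30 ± 0.11, adjusted p = 6.59e-10). Gbp10 averaged 86.9 ± 20.2 CPM with LPS and 242 ± 16.6 CPM with hypoxia (-1.48, adjusted p = 2.01e-07). Gbp genes are close copies of each other, and the handling of shared reads is not given.

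Within the same list Ly6i, a surface protein gene, was higher with LPS, at 106.5, 108 and 184 CPM against 10, 9.62 and 8.80 CPM with hypoxia (log2 fold change 3.80 ± 0.23, adjusted p = 5.09e-11), and so was Serpina3g (1.10, adjusted p = 3.12e-08). Iigp1, an immunity-related GTPase, was higher at 2286 ± 129 CPM with LPS and 1774 ± 86.2 CPM with hypoxia (adjusted p = 0.0239), a call that was lost without LPS library 3 (adjusted p = 0.0689), hypoxia library 1 (0.0933) or hypoxia library 2 (0.0663). Ido1, which breaks down tryptophan and was named after its values were seen, had 18.0, 11.3 and 4.18 CPM with LPS, against 96.7, 71.3 and 68.6 CPM with hypoxia (log2 fold change -2.82 ± 0.37, adjusted p = 4.83e-06), while IFNg alone had 2.40, 1.88 and 2.19 CPM.

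In the interferon receptor and JAK-STAT list, 7 of 19 members were lower and 1 higher with LPS (median -0.14). The higher count was 2 with RPKM totals, beside 6 lower, and 4 without LPS library 3. Ifngr1, the ligand-binding chain of the IFNg receptor, had 169.7, 166 and 219 CPM with LPS, against 331, 306 and 335 CPM with hypoxia (log2 fold change -0.81 ± 0.12, adjusted p = 3.99e-06). Jak3 (-0.86, adjusted p = 8.5e-05) and Stat6, which transmits IL-4 signals (-0.55, adjusted p = 0.000142), were lower, and the phosphatase gene Ptpn1 was higher (0.41, adjusted p = 0.00178).

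All 9 called members of the MHC class II list, out of 11 tested, were lower with LPS (median -1.28), against 15.5% of all tested genes called in that direction. Ciita (ENSMUSG00000022504, chromosome 16, 10480059 to 10528418), the transactivator that switches these genes on, had 333, 326.5 and 294 CPM with LPS, against 801, 768 and 784 CPM with hypoxia. IFNg alone had 741, 709 and 798 CPM, close to the hypoxia libraries (log2 fold change -1.30 ± 0.13, adjusted p = 1.91e-08, with -1.24 for LPS and 0.07 for hypoxia over IFNg alone, adjusted p = 7.36e-08 and 0.779). H2-Ab1 (ENSMUSG00000073421, chromosome 17, 34257689 to 34269419), a chain of the I-A molecule, had 1077.5, 901 and 909 CPM with LPS, against 2646.5, 2434 and 2294 CPM with hypoxia (log2 fold change -1.35 ± 0.14, adjusted p = 1.75e-08). For H2-Ab1 IFNg alone lay between, at 1458, 1173 and 1508 CPM, so that LPS was below it (-0.52) and hypoxia above it (0.83).

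The invariant chain gene Cd74 followed with 6487 ± 215 CPM with LPS and 15747 ± 304 CPM with hypoxia (log2 fold change -1.28 ± 0.11, adjusted p = 7.46e-10). H2-Ob, which restrains peptide loading, averaged 10.5 ± 3.03 CPM with LPS and 75.8 ± 5.47 CPM with hypoxia (log2 fold change -2.86 ± 0.28, adjusted p = 7.78e-09), and the loading catalyst gene H2-DMa 642.5 ± 68.9 CPM with LPS and 1492 ± 38.8 CPM with hypoxia (log2 fold change -1.22 ± 0.12, adjusted p = 1.45e-08). The summed level of the MHC class II list was 10462 to 11358 CPM with LPS, against 26225 to 27470.4 CPM with hypoxia, with no overlap.

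In MHC class I presentation 7 of 22 members were lower and 1 higher with LPS (median -0.27). With RPKM totals 5 were lower and 5 higher, and without LPS library 3 there were 7 lower and 5 higher. Pdia3, a chaperone of the loading complex, averaged 1342 ± 88.4 CPM with LPS and 2546.5 ± 112 CPM with hypoxia (log2 fold change -0.92 ± 0.10, adjusted p = 3.5e-08). The non-classical H2-T23 (-0.52, adjusted p = 0.000877) and the immunoproteasome gene Psmb9 (-0.64, adjusted p = 0.00235) were lower and the immunoproteasome gene Psmb10 higher (0.56, adjusted p = 0.00234).

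Surface molecules that stimulate or inhibit T cells were divided, with 5 of 19 higher and 6 lower with LPS (median -0.04), or 3 higher without LPS library 3 or hypoxia library 1. Cd274, which encodes PD-L1, had 849, 882 and 914 CPM with LPS, against 739, 686 and 808 CPM with hypoxia, and missed the threshold (log2 fold change 0.24 ± 0.13, 95% interval -0.02 to 0.51, adjusted p = 0.158), but passed it with RPKM totals (0.41, adjusted p = 0.0131). IFNg alone had 289, 278 and 322 CPM, below both groups. Cd40, the receptor for T cell help, averaged 151 ± 25.3 CPM with LPS and 54.0 ± 8.07 CPM with hypoxia (log2 fold change 1.48 ± 0.17, adjusted p = 9.97e-08), with the costimulatory ligand gene Cd80 (1.44, adjusted p = 0.0053) and, among inhibitory ones, Lgals9 (1.02, adjusted p = 3.24e-07) also higher. Vsir, an inhibitory ligand, averaged 187 ± 11.6 CPM with LPS and 457.5 ± 42.4 CPM with hypoxia (log2 fold change -1.29 ± 0.12, adjusted p = 1.88e-09), with Cd83 (-1.87, adjusted p = 1.2e-06) and Icosl (-1.46, adjusted p = 8.53e-06) also lower with LPS.

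Of 8 tested HIF subunits and oxygen sensors, 4 were lower and 1, Hif1a, higher with LPS (median -0.81), and 2 were lower without LPS library 3. Egln3 (ENSMUSG00000035105, chromosome 12, 54178981 to 54203860), a prolyl hydroxylase that is itself a HIF target, had 4.58, 2.47 and 0.558 CPM with LPS, against 132, 118 and 137 CPM with hypoxia, and 0.104, 1.24 and 0.889 CPM in IFNg alone. No LPS library came near the hypoxia libraries (log2 fold change -5.64 ± 0.66, adjusted p = 7.45e-06), and without LPS library 1, the highest of its group, the value was -6.32. Its sister Egln1 had 25.4, 22.7 and 29.9 CPM with LPS, against 175, 158 and 167 CPM with hypoxia (log2 fold change -2.68 ± 0.18, adjusted p = 6.85e-12). Hif1a, the HIF subunit itself, ran the other way: it had 549.9, 586 and 622 CPM with LPS, against 362.5, 351 and 383 CPM with hypoxia (log2 fold change 0.68 ± 0.11, adjusted p = 2.11e-05), and 304, 338 and 343 CPM in IFNg alone. Epas1, which encodes HIF-2 alpha, had 0, 0.220 and 0 CPM with LPS, against 2.78, 0.596 and 2.32 CPM with hypoxia (adjusted p = 0.015), with all 4 LPS counts in library 2, and its call was lost without LPS library 1 (adjusted p = 0.0637) or 3 (0.0513).

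Of 39 tested HIF targets outside glycolysis, 27 were lower and 2 higher with LPS (median -1.14). Ndrg1 (ENSMUSG00000005125, chromosome 15, 66929318 to 66969640), a stress-response gene, had 41.4, 39.8 and 40.4 CPM with LPS, against 756, 617 and 704 CPM with hypoxia (log2 fold change -4.10 ± 0.15, adjusted p = 1.29e-16). Cxcr4, a chemokine receptor and known HIF target, had 24.4, 29.3 and 32.2 CPM with LPS, against 414, 381 and 393 CPM with hypoxia (log2 fold change -3.79 ± 0.15, adjusted p = 2.52e-16), and in IFNg alone it had 42.6, 41.4 and 53.9 CPM. Plod2, a collagen lysyl hydroxylase, had 1.51, 0.934 and 0.558 CPM with LPS, against 53.7, 47.3 and 50.5 CPM with hypoxia (log2 fold change -5.63 ± 0.36, adjusted p = 4.15e-12). Ndrg1 and Cxcr4 did not overlap between the groups, as held for 42.1% of all tested genes, and for Plod2 the naming rule required it. P4hb, a subunit of collagen prolyl hydroxylase and a disulfide isomerase, averaged 859 ± 43.6 CPM with LPS and 2735 ± 176 CPM with hypoxia (log2 fold change -1.67 ± 0.10, adjusted p = 7.87e-13). Adm, the vasodilator adrenomedullin, averaged 0.242 ± 0.247 CPM with LPS and 12.9 ± 2.31 CPM with hypoxia (log2 fold change -5.64 ± 0.99, adjusted p = 0.000132), with -6.62 without LPS library 2.

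A few targets did not follow this pattern. Vegfa, the blood vessel growth factor, had 64.1, 32.0 and 39.2 CPM with LPS, against 75.1, 44.6 and 61.5 CPM with hypoxia, and the groups overlapped (log2 fold change -0.42 ± 0.20, adjusted p = 0.125). Its level passed the threshold without LPS library 1 (-0.73, adjusted p = 0.00531) and without hypoxia library 2 (-0.60, adjusted p = 0.0391), and IFNg alone had 12.8, 15.1 and 10.3 CPM. Tfrc, the transferrin receptor, had 37.8, 34.4 and 36.4 CPM with LPS, against 5.56, 9.62 and 5.87 CPM with hypoxia (log2 fold change 2.37 ± 0.26, adjusted p = 6.52e-08). Rab20, a small GTPase of phagosomes, had 41.3, 38.0 and 27.4 CPM with LPS, against 9.21, 9.88 and 9.65 CPM with hypoxia (log2 fold change 1.89 ± 0.23, adjusted p = 2.66e-07), both higher with LPS. Bnip3, a mitophagy receptor, had at most 1.85 CPM in any library of the 3 groups and missed the threshold (-2.13, adjusted p = 0.253). Genes with near-identical copies elsewhere can share or lose reads in counting, and the handling of such reads is not given.

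Glucose transporters and glycolytic enzymes were lower with LPS in 15 of 26 members and higher in 1 (median -1.04), or 2 higher without LPS library 3. Slc2a1 (ENSMUSG00000028645, chromosome 4, 119108711 to 119137983), the glucose transporter Glut1, had 291, 292 and 213 CPM with LPS, against 842, 821 and 769 CPM with hypoxia, and 70.0, 70.5 and 73.6 CPM in IFNg alone. The LPS libraries lay between IFNg alone and hypoxia (log2 fold change -1.61 ± 0.14, adjusted p = 9.97e-10, with 1.89 for LPS and 3.51 for hypoxia over IFNg alone). In both groups it lay above IFNg alone. Hk2, the inducible hexokinase, had 112, 131 and 119 CPM with LPS, against 633, 549 and 589 CPM with hypoxia (log2 fold change -2.29 ± 0.13, adjusted p = 2.8e-13). Ldha, the lactate dehydrogenase subunit, had 388, 360.3 and 447 CPM with LPS, against 732, 838 and 811 CPM with hypoxia (log2 fold change -0.99 ± 0.12, adjusted p = 2.16e-07), with 196, 203 and 197 CPM in IFNg alone, again below LPS.

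Pdk1, a kinase that inhibits pyruvate dehydrogenase, had 67.4, 66.1 and 60.8 CPM with LPS, against 225, 216 and 237 CPM with hypoxia (log2 fold change -1.80 ± 0.14, adjusted p = 9.17e-11). Its LPS libraries overlapped those of IFNg alone, at 76.2, 55.0 and 61.3 CPM (log2 fold change 0.01 over IFNg alone, adjusted p = 0.97). Pfkp, a phosphofructokinase, averaged 612 ± 30.3 CPM with LPS and 2046 ± 93.5 CPM with hypoxia (log2 fold change -1.74 ± 0.10, adjusted p = 1.1e-12). Slc2a6, a transporter of lysosomal membranes, was the member higher with LPS, at 411 ± 106 CPM with LPS and 169 ± 27.0 CPM with hypoxia (log2 fold change 1.29 ± 0.15, adjusted p = 3.61e-07). Per kilobase of coding width the hexokinase levels were 43.8 CPM per kb with LPS and 214 CPM per kb with hypoxia for Hk2, 179.9 CPM per kb with LPS and 341 CPM per kb with hypoxia for Hk1 and 1017 CPM per kb with LPS and 825 CPM per kb with hypoxia for Hk3, so Hk3, named like Hk1 after its values were seen, was the most abundant of the 3 in both groups.

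The promoters of Egln3 (chr12:54203825-54204124, minus strand) and Hk2 (chr6:82774405-82774704, minus strand) are shown as examples that hold ACGTG, the core letters of the hypoxia response element. They are RefSeq sequences on GRCm38.p6, with each match on either strand in capitals (CACGT where it lies on the opposite strand).
Egln3: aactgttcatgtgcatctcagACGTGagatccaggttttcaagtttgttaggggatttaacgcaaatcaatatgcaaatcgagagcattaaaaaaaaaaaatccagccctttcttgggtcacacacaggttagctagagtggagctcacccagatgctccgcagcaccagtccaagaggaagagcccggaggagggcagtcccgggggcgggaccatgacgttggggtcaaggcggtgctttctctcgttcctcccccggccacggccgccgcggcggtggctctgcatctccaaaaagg
Hk2: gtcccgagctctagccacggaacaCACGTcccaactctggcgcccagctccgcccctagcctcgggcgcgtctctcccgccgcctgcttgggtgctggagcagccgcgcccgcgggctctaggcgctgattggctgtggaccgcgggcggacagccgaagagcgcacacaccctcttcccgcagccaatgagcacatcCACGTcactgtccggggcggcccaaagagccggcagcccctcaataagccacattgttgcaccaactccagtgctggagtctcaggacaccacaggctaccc
ACGTG was present in 24 of 39 promoters of the HIF target list (61.5%), 16 of 41 of the glycolysis list (39.0%) and 25.3% of promoters of all tested genes. Among genes at least 2-fold lower with LPS it was present in 25.6%, and among those at least 2-fold higher in 21.5%. Only 300 bases around each transcript start were searched, and a match is not a bound site.

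**Figure D4:**
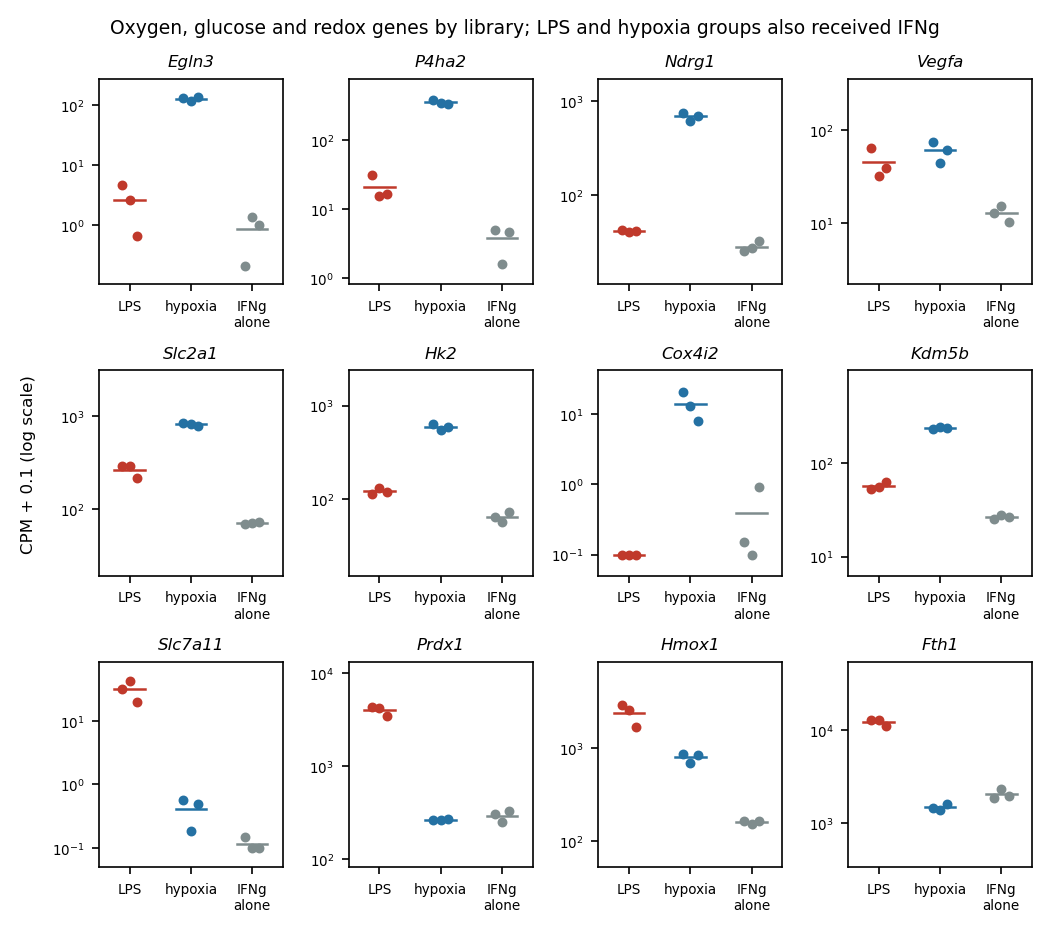
CPM plus 0.1 on a log axis for 12 oxygen, glucose and redox genes, with points for the 3 libraries and a line for the mean of IFNg with LPS (red), IFNg with hypoxia (blue) and IFNg alone (grey). Egln3, P4ha2, Ndrg1, Slc2a1, Hk2, Cox4i2 and Kdm5b lie lower with LPS without overlap, Slc7a11, Prdx1, Hmox1 and Fth1 higher, and Vegfa overlaps. Of all tested genes 42.1% showed no overlap, and for Egln3, Cox4i2 and Slc7a11 the naming rule required it. P4ha2 was chosen after its values were seen.

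Transcripts encoded by the mitochondrial genome were the list with the highest median, 2.90: of 10 tested members 7 were higher with LPS and none lower. mt-Nd1, a subunit of complex I, had 636, 681 and 1024 CPM with LPS, against 64.7, 67.2 and 65.8 CPM with hypoxia, and 830.2, 926 and 702.5 CPM in IFNg alone. The LPS libraries overlapped those of IFNg alone, and the hypoxia libraries lay far below both (log2 fold change 3.57 ± 0.23, adjusted p = 3.26e-10, with -0.07 for LPS and -3.64 for hypoxia over IFNg alone). mt-Cytb, of complex III, had 835, 923 and 1082 CPM with LPS, against 141, 163 and 122.5 CPM with hypoxia (log2 fold change 2.74 ± 0.19, adjusted p = 4.62e-10), and mt-Nd4 had 416, 402 and 562 CPM with LPS, against 38.4, 38.2 and 35.2 CPM with hypoxia (log2 fold change 3.63 ± 0.25, adjusted p = 1.6e-09). The other 4, named after their values were seen to complete the count, were mt-Nd5, mt-Nd6, mt-Nd2 and mt-Co1, with log2 fold changes of 3.79, 4.05, 3.05 and 1.34. mt-Co1 differed least of the 7, at 1129, 1305 and 1488 CPM with LPS, against 450.2, 595 and 505 CPM with hypoxia. mt-Co2, mt-Co3 and mt-Atp6 had means under 1 CPM in every group and missed the threshold. Copies of mitochondrial genes in the nuclear genome can share their reads, and the handling of such reads is not given, so these low values may not be levels of the transcripts. mt-Nd5 and mt-Nd6 overlap on opposite strands, so their reads could be shared.

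**Figure D5:**
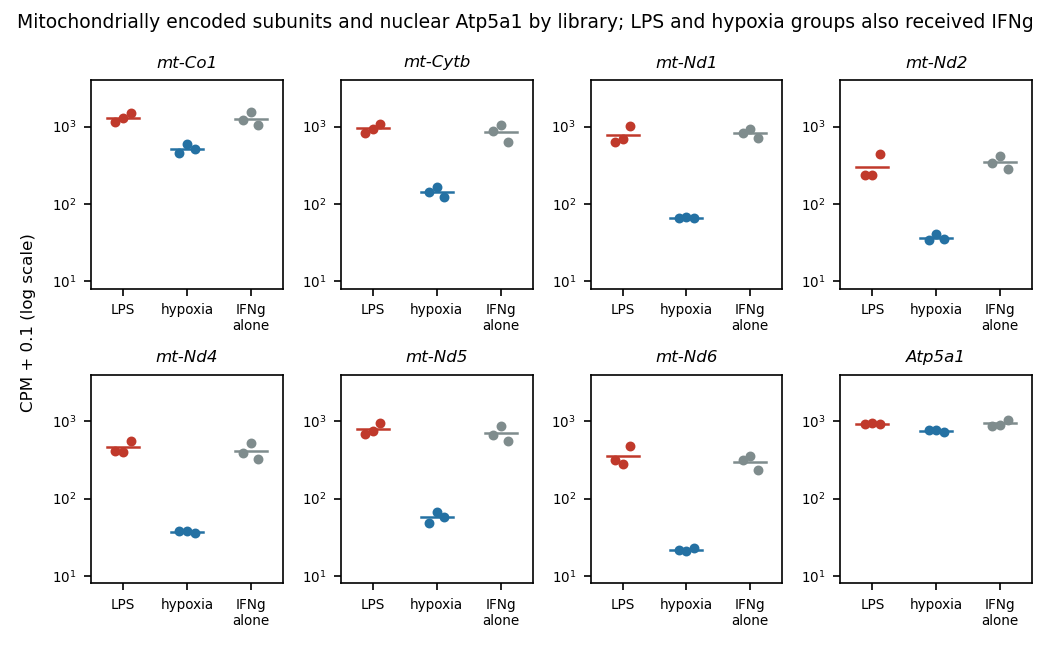
CPM plus 0.1 on a log axis, the same in all panels, for the 7 called mitochondrially encoded genes and the nuclear gene Atp5a1, chosen after its values were seen, with points for the 3 libraries and a line for the mean of IFNg with LPS (red), IFNg with hypoxia (blue) and IFNg alone (grey). The 7 mitochondrial transcripts are lower with hypoxia in every library, while Atp5a1 differs by a log2 fold change of 0.30.

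Genes on the mitochondrial genome held 0.438 to 0.596% of all counts with LPS, 0.0726 to 0.0907% with hypoxia and 0.389 to 0.596% in IFNg alone. In this share every hypoxia library was thus below every LPS library and every library of IFNg alone. Nuclear-encoded subunits of the respiratory chain differed less: 10 of 55 were higher and 2 lower with LPS (median 0.28), near the 14.4% of all tested genes called higher. That count was 21 higher and 1 lower with RPKM totals, 16 and 2 without LPS library 3, and 5 or 6 higher without LPS library 1 or 2 or hypoxia library 2 or 3. Lower members numbered 1 without LPS library 2 or hypoxia library 3. Ndufa4, a small subunit of the chain, averaged 46.6 ± 7.08 CPM with LPS and 22.1 ± 1.71 CPM with hypoxia (log2 fold change 1.08 ± 0.17, adjusted p = 1.43e-05). Ndufs8 averaged 56.5 ± 3.68 CPM with LPS and 31.9 ± 3.86 CPM with hypoxia (log2 fold change 0.83 ± 0.15, adjusted p = 0.000112). Besides Cox4i2, Uqcrh of complex III was lower with LPS (-0.45, adjusted p = 0.0193), but not with RPKM totals (-0.28, adjusted p = 0.156), without LPS library 2 (0.0987) or without hypoxia library 3 (0.0938).

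Genes of the Krebs cycle and its inlets counted 10 higher and 3 lower of 25 (median 0.27), or 16 and 2 with RPKM totals. Idh3a, a subunit of isocitrate dehydrogenase, had 37.4, 42.1 and 44.3 CPM with LPS, against 8.94, 14 and 11.9 CPM with hypoxia (log2 fold change 1.83 ± 0.22, adjusted p = 3.35e-07). IFNg alone had 34.0, 37.6 and 36.4 CPM, close to LPS. Pcx, which refills the cycle from pyruvate, averaged 18.2 ± 6.07 CPM with LPS and 4.02 ± 1.08 CPM with hypoxia (log2 fold change 2.18 ± 0.30, adjusted p = 1.86e-06). Sdhb, a subunit of succinate dehydrogenase, averaged 270.5 ± 7.67 CPM with LPS and 166 ± 8.19 CPM with hypoxia (log2 fold change 0.71 ± 0.10, adjusted p = 5.12e-06). Lower with LPS were Me2, a mitochondrial malic enzyme (-1.37, adjusted p = 1.49e-09), fumarase Fh1 (-0.50, adjusted p = 0.00359) and Idh3g (-0.46, adjusted p = 0.0053), the last not with RPKM totals (-0.30, adjusted p = 0.0726).

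The antioxidant, heme and iron genes known as Nrf2 targets and their partners were higher with LPS almost throughout: 22 of 25 tested members were higher and none lower, or 1 lower when only the 6 libraries were fitted (median 1.56), against 14.4% of all tested genes called higher. Prdx1 (ENSMUSG00000028691, chromosome 4, 116685544 to 116700822), a peroxidase of hydrogen peroxide, had 4276, 4219 and 3450.3 CPM with LPS, against 267, 265 and 268 CPM with hypoxia, and 304, 251 and 327 CPM in IFNg alone. Hypoxia and IFNg alone were close, and LPS was apart from both (log2 fold change 3.90 ± 0.12, adjusted p = 2.42e-18, with 3.76 for LPS and -0.14 for hypoxia over IFNg alone). Slc7a11 (ENSMUSG00000027737, chromosome 3, 49892526 to 50443614), the cystine importer that feeds glutathione synthesis, had 31.3, 41.7 and 19.9 CPM with LPS, against 0.464, 0.0851 and 0.386 CPM with hypoxia (log2 fold change 6.54 ± 0.42, adjusted p = 7.17e-11). Fth1 (ENSMUSG00000024661, chromosome 19, 9980598 to 9985098), the ferritin heavy chain that stores iron, had 12780.1, 12909 and 11105 CPM with LPS, against 1464, 1402 and 1593 CPM with hypoxia (log2 fold change 3.04 ± 0.17, adjusted p = 6.11e-13).

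Hmox1, the heme oxygenase, had 2855, 2506 and 1657 CPM with LPS, against 853, 690.2 and 836 CPM with hypoxia (log2 fold change 1.56 ± 0.14, adjusted p = 2.47e-09). Both groups were above IFNg alone, which had 164, 152 and 164 CPM. Sod2, the mitochondrial superoxide dismutase, averaged 339.9 ± 58.6 CPM with LPS and 41.9 ± 3.20 CPM with hypoxia (log2 fold change 3.02 ± 0.14, adjusted p = 8.99e-15). Nqo1, a quinone reductase, averaged 13.3 ± 7.48 CPM with LPS and 0.206 ± 0.357 CPM with hypoxia (log2 fold change 5.98 ± 0.85, adjusted p = 1.84e-05). For Nqo1 all 8 hypoxia counts came from library 3. LPS library 3 was the lowest LPS library for Prdx1, Slc7a11, Fth1, Hmox1, Sod2 and Nqo1, and without it 21 members of the list were higher.

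The Prdx1 promoter is shown for its match to TGACNNNGC, the antioxidant-response-like letters, in capitals on the strand opposite to that of the motif as written (chr4:116685349-116685648, plus strand, RefSeq, GRCm38.p6).
Prdx1: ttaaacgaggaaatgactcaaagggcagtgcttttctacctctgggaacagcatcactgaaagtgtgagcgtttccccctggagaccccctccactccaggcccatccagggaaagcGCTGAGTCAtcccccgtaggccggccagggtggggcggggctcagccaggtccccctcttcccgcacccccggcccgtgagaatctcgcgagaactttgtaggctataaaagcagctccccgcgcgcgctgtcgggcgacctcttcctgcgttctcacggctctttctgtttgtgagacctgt
This motif was present in 8 of 27 promoters of the Nrf2 list (29.6%) and in 14.3% of promoters of all tested genes. In genes at least 2-fold higher with LPS the share was 14.4%, and in genes at least 2-fold lower it was 12.8%.

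Of 30 tested members of the ATF4 and unfolded protein list, 17 were lower and 8 higher with LPS (median -0.70). Those higher included enzymes of amino acid and folate supply, but not all such enzymes. Psat1, of serine synthesis and named after its values were seen, was among the members lower with LPS. Asns, the asparagine synthetase, had 49.1, 68.1 and 74.1 CPM with LPS, against 6.69, 5.02 and 1.93 CPM with hypoxia (log2 fold change 3.80 ± 0.29, adjusted p = 2.57e-10), with 26.8, 22.6 and 19.5 CPM in IFNg alone, above hypoxia and below LPS. Mthfd2, of mitochondrial folate metabolism, had 107, 129.6 and 115.5 CPM with LPS, against 28.0, 25.7 and 30.9 CPM with hypoxia (log2 fold change 2.06 ± 0.13, adjusted p = 2.71e-12). Aldh18a1, of proline synthesis, averaged 32.9 ± 7.74 CPM with LPS and 8.05 ± 1.38 CPM with hypoxia (2.03, adjusted p = 2.41e-07).

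Those lower with LPS included chaperones of the endoplasmic reticulum. Hspa5 (ENSMUSG00000026864, chromosome 2, 34771970 to 34777547), the chaperone BiP, had 1266, 1395 and 1700.2 CPM with LPS, against 3589, 3692 and 3323 CPM with hypoxia. IFNg alone lay between, at 2117, 2112 and 1998 CPM (log2 fold change -1.28 ± 0.11, adjusted p = 9.39e-10, with -0.51 for LPS and 0.77 for hypoxia over IFNg alone). Hsp90b1, which encodes Grp94, averaged 1225 ± 197 CPM with LPS and 2997 ± 182.5 CPM with hypoxia (log2 fold change -1.29 ± 0.11, adjusted p = 1.3e-09). Herpud1, of protein degradation at that membrane, averaged 25.5 ± 5.06 CPM with LPS and 92.3 ± 11.2 CPM with hypoxia (log2 fold change -1.86 ± 0.18, adjusted p = 9.14e-09). Vldlr, a lipoprotein receptor, had 0.290, 0 and 0 CPM with LPS, against 28.5, 24.2 and 15.4 CPM with hypoxia (adjusted p = 0.0033).

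Oxygen-dependent demethylases of histones, listed with the Tet enzymes of DNA, were lower with LPS in 14 of 17 members and higher in none (median -0.87), or 10 lower with RPKM totals. Kdm5b (ENSMUSG00000042207, chromosome 1, 134560171 to 134635285), which removes methyl groups from lysine 4 of histone H3, had 52.4, 55.9 and 63.2 CPM with LPS, against 235, 244 and 239.5 CPM with hypoxia, and 25.1, 27.7 and 26.6 CPM in IFNg alone. LPS was above IFNg alone and hypoxia above both (log2 fold change -2.07 ± 0.15, adjusted p = 6.79e-11). Kdm6b, which acts on lysine 27 and is known in macrophages for its induction by LPS, had 49.4, 43.3 and 39.9 CPM with LPS, against 195.5, 171 and 157.5 CPM with hypoxia (log2 fold change -1.98 ± 0.16, adjusted p = 3.47e-10). Its level with LPS was 1.51 on the log2 scale over IFNg alone, and its level with hypoxia 3.49. Kdm3a, a known HIF target that acts on lysine 9, averaged 111 ± 7.62 CPM with LPS and 245 ± 6.41 CPM with hypoxia (log2 fold change -1.14 ± 0.13, adjusted p = 8.02e-08).

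Markers of alternative activation and resident macrophages were lower with LPS in 13 of 24 members and higher in 5 (median -0.91). Selenop (ENSMUSG00000064373, chromosome 15, 3268547 to 3280508), which encodes a secreted selenium carrier, had 252, 256 and 373 CPM with LPS, against 1448, 1462 and 1483 CPM with hypoxia (log2 fold change -2.32 ± 0.13, adjusted p = 4.07e-13), and 1163, 1293 and 1249 CPM in IFNg alone, near hypoxia. Il4ra, the receptor chain for IL-4 and IL-13, had 607, 626 and 535 CPM with LPS, against 1635, 1435 and 1564 CPM with hypoxia (log2 fold change -1.39 ± 0.10, adjusted p = 6.79e-11). Il10ra averaged 439 ± 15.2 CPM with LPS and 955 ± 28.8 CPM with hypoxia (log2 fold change -1.12 ± 0.09, adjusted p = 3.59e-10). Neither overlapped between the groups. Mrc1, the mannose receptor, had 7.94, 11.6 and 15.0 CPM with LPS, against 14.3, 17.2 and 10.3 CPM with hypoxia, overlapped and missed the threshold (log2 fold change -0.28 ± 0.31, adjusted p = 0.55), with 74.9, 52.4 and 85.6 CPM in IFNg alone. Higher with LPS were the apoptotic cell receptor gene Mertk, at 227 ± 12.2 CPM with LPS and 79.4 ± 2.92 CPM with hypoxia (log2 fold change 1.52 ± 0.12, adjusted p = 9.17e-11), the growth factor gene Igf1 (2.17, adjusted p = 1.69e-10) and the complement receptor gene C5ar1 (0.68, adjusted p = 0.000141).

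Lipid handling genes were divided, with 9 of 24 higher and 7 lower with LPS (median 0.10, 66.7% called against 30.0% of all tested genes). Nr1h3, the sterol sensor LXR alpha, averaged 45.3 ± 6.16 CPM with LPS and 6.04 ± 0.839 CPM with hypoxia (log2 fold change 2.91 ± 0.20, adjusted p = 1.87e-11). Lipoprotein lipase Lpl (0.98, adjusted p = 3.33e-08) and lysosomal lipase Lipa (0.76, adjusted p = 4.77e-06) were also higher. The cholesterol exporter gene Abca1 (-1.02, adjusted p = 7.44e-05), the apolipoprotein gene Apoe (-1.04, adjusted p = 0.00018) and Pltp, a phospholipid transfer protein at 425 ± 10.5 CPM with LPS and 1989 ± 155 CPM with hypoxia (-2.23, adjusted p = 2.08e-09), were lower with LPS. In cholesterol synthesis 4 of 22 were higher and 4 lower, shares near those of all tested genes (14.4% and 15.5%). The median was -0.10, and 5 were higher and 2 lower with RPKM totals. Only 2 were higher without hypoxia library 3, and 2 were lower without hypoxia library 2 or 3.

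Genes of DNA replication and mitosis were higher with LPS in 12 of 36 members and lower in 2 (median 0.45), or in 1 without LPS library 1 or 2 or hypoxia library 1. The list summed to 690.5 to 799.1 CPM with LPS and 538.1 to 675.9 CPM with hypoxia. Both lay below IFNg alone, at 2363 to 2762.6 CPM. Tpx2, a spindle protein gene, averaged 49.7 ± 12.3 CPM with LPS and 21.8 ± 2.35 CPM with hypoxia (log2 fold change 1.19 ± 0.16, adjusted p = 1.29e-06). Mcm5, of the replicative helicase, averaged 34.5 ± 5.54 CPM with LPS and 13.7 ± 4.66 CPM with hypoxia (log2 fold change 1.33 ± 0.22, adjusted p = 4.78e-05). Mki67, the usual marker of cycling cells, had 54.4, 73.5 and 58.7 CPM with LPS, against 65.3, 52.1 and 41.5 CPM with hypoxia, overlapped and missed the threshold (log2 fold change 0.23 ± 0.21, adjusted p = 0.461), with 338, 378 and 253 CPM in IFNg alone. Bub1, a checkpoint kinase, was lower with LPS (-1.19, adjusted p = 0.000433). Cytosolic ribosomal protein genes counted 8 lower and none higher of 22 (median -0.55), or 7 lower with RPKM totals and 6 without LPS library 3. Called members made up 36.4%, against 30.0% of all tested genes called and 15.5% called lower. Rps3 averaged 562 ± 47.7 CPM with LPS and 828 ± 47.0 CPM with hypoxia (-0.56, adjusted p = 0.00035). Many ribosomal genes have processed copies in the genome, so these counts are uncertain.

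Smaller families showed single genes with large differences. Among 13 metalloproteinase genes and inhibitors 4 were higher and 4 lower with LPS (median -0.08). Mmp14, the membrane-bound collagenase, had 92.2, 82.9 and 49.8 CPM with LPS, against 3.05, 3.66 and 3.32 CPM with hypoxia (log2 fold change 4.49 ± 0.35, adjusted p = 5.87e-09). Mmp13, a secreted collagenase, had 11.5, 15.0 and 13.1 CPM with LPS, against 93.1, 108 and 105.5 CPM with hypoxia (log2 fold change -2.95 ± 0.27, adjusted p = 2.16e-09). The groups did not overlap for either, and the directions were opposite. Of 12 metallothioneins and zinc transporters 3 were higher and 5 lower (median -0.35, 4 and 4 with RPKM totals, and 3 lower without LPS library 1), with the metal-binding genes Mt1 at 22.7 ± 11.9 CPM with LPS and 97.5 ± 19.0 CPM with hypoxia (-2.10, adjusted p = 0.00255) and Mt2 at 24.2 ± 11.8 CPM with LPS and 115 ± 27.2 CPM with hypoxia (-2.24, adjusted p = 0.000194), and the zinc and iron importer gene Slc39a14 higher (1.47, adjusted p = 0.000222). Of 30 immediate-early factors and MAP kinase phosphatases 3 were higher and 6 lower (median -0.14, 5 and 4 with RPKM totals), a share equal to the 30.0% of all tested genes. Fos (0.93, adjusted p = 2.41e-05) and the phosphatase gene Dusp1 (0.93, adjusted p = 4.09e-05) were higher and Jun (-1.34, adjusted p = 9e-06) and Klf10 (-1.18, adjusted p = 8.3e-07) lower with LPS.

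Some cell type markers moved with the groups. The 12 macrophage identity markers summed to 21562 to 24696 CPM with LPS, against 31329 to 32143 CPM with hypoxia, with 2 higher, Mertk and Cd14, and 6 lower with LPS, among them Fcgr3, Fcgr1, Mpeg1, Csf1r and Itgam. The 12 markers of neutrophils and their precursors summed to 162.5 to 207 CPM with LPS, against 221 to 250.2 CPM with hypoxia, and of 11 tested Mmp8 was higher and Ltf, Elane, Camp, Mpo, S100a9 and S100a8 were lower, with Ltf at 3.02 ± 1.19 CPM with LPS and 17.2 ± 3.27 CPM with hypoxia (-2.51, adjusted p = 4.49e-06). The Mmp8 call was lost without hypoxia library 2. The 7 B cell markers summed to 63.3 to 109.6 CPM with LPS, against 249.6 to 283 CPM with hypoxia, of which Ighm held 61.5 to 107.9 CPM with LPS and 234.9 to 266.7 CPM with hypoxia, while Ms4a1, Pax5 and Ebf1 had 0 counts and Ighm and Cd79b were lower with LPS. Of 9 T cell markers 4 were tested and Il7r was higher with LPS, a call that was lost without LPS library 3 or hypoxia library 1, and Cd3e, Cd3d, Cd3g and Cd8a had 0 counts, with sums of 122 to 212 CPM with LPS, against 88.6 to 108 CPM with hypoxia. Among 8 dendritic cell markers Ccr7 and Bst2 were higher and Clec9a lower, with sums of 295.5 to 482 CPM with LPS, against 298.5 to 388 CPM with hypoxia. Endothelial markers summed to 104.5 to 126 CPM with LPS, against 85.1 to 105 CPM with hypoxia, with Kdr higher and Pecam1 lower, and none was called of the 2 tested mast cell markers out of 7 or the 5 tested stromal markers out of 7. None of the 7 erythroid markers had enough counts to be tested. Klrk1 was the 1 tested of 6 NK cell markers and was lower (-0.98, adjusted p = 0.0457), a call that was lost when any 1 of the 6 libraries was left out and with RPKM totals, with no filter, with the replicate block and with DESeq2. The NK cell markers had sums of 29.9 to 33.8 CPM with LPS, against 56.4 to 67.1 CPM with hypoxia and Ncr1, Klrb1c, Gzma, Prf1 and Eomes at 0. Of 5 megakaryocyte markers 3 were tested and Pf4 was lower, or 2 without LPS library 3, with sums of 21.4 to 24.4 CPM with LPS, against 53.9 to 72.8 CPM with hypoxia. The marker genes in this paragraph were named by list and not by the rule for named genes. The part of these cells in the differences above was not tested.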

How the data were processed

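Bulk RNA was sequenced in 18 macrophage libraries, per the labels' protocols with the TruSeq stranded mRNA kit. The authors aligned reads with GSNAP to mm10, per the submitters' processing notes; the gene counter, its use of strand, its treatment of reads with several matches and the annotation are not named in the labels or notes. The deposited files give raw counts and RPKM per gene. Of the gene widths given with them, 86.7% were multiples of 3. Counts made up 51.9 to 54.89% of the totals that RPKM implies with LPS and 51.68 to 52.11% with hypoxia. Whether counting was limited to coding sequence was not tested. The counts were tested, and the RPKM values deposited by the authors served only to derive library totals for an alternative scaling.

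Of 22598 genes 22457 were given symbols by identifier. Genes with enough counts (edgeR's filterByExpr, 11563) were fitted with edgeR 4.0.16 in R 4.3.3 (quasi-likelihood, TMM) over all 18 libraries with 1 mean per group, and the contrast was IFNg with LPS minus IFNg with hypoxia, with Benjamini-Hochberg adjustment at 0.05. CPM used tested-gene library sizes and TMM factors, which were 0.986 to 1.029 with LPS and 0.909 to 0.915 with hypoxia; 3 counts corresponded to 0.165 to 0.255 CPM. Counting intervals are exact 95% binomial intervals that cover counting error only. On simulated data of this comparison with 11265 genes, 56% of genes changed 2-fold and 84% of genes changed 4-fold were recovered, with 4 false calls of 144. Only 200 genes were changed there, against 3467 called in the data. Genes were drawn independently, without shifts shared across a library. These rates therefore do not give the error rate of the calls in the data.

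Genes named are the 10 furthest in each direction (adjusted p under 0.05, at least 10 CPM in the higher group, no overlap), up to 3 per list and direction by adjusted p, and a panel of 30 genes. The members, the 32 pathway lists and the 11 marker lists were chosen with earlier results of these data known. The lists held 877 matched genes, and 3 further symbols had no match. Promoters (32851, of 16488 genes) came from RefSeq, GRCm38.p6. Alternatives changed scaling, filter, libraries fitted, replicate block, tool (DESeq2 1.42.0) and left out each library in turn. A few genes of the lists are not reported by name here.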

Additional observations from a re-analysis of the deposited data

How the results depend on the processing

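The count of 3467 changed genes, 1485 of them at least 2-fold different, was 3468 and 1487 with DESeq2's size factors, 3776 with RPKM totals, 3328 and 1463 with no filter, 3510 and 1434 with a stricter filter, 3255 and 1404 when only the 6 libraries were fitted, and 3703 and 1588 with DESeq2's Wald test. Leaving out 1 library gave 2829 to 3233 changed genes and 1348 to 1452 with at least 2-fold difference. The direction of 195 named genes was kept in the 13 settings with 1 exception, Tlr4, which missed the threshold throughout: its log2 fold change of -0.07 became 0.10 with RPKM totals, 0.14 without LPS library 1 and 0.01 without hypoxia library 3, in a range of -0.19 to 0.14 over the libraries left out. Of 188 named genes that were called, 176 stayed called in every setting that gave them a value. The 12 that lost the call at least once were Batf, Cxcl10, Epas1, Idh3g, Iigp1, Il12b, Mcm6, Msmo1, Mtf1, Ripk1, Stard4 and Uqcrh, and the cause was not tested. Under RPKM totals 65.1% of calls were higher with LPS, against 48.1% under TMM. Genes near 0 in 1 group, such as Il6, Cxcl2, Adm, Nqo1 and Ednrb, have fitted fold changes that moved by more than 1.5 times when 1 library was left out, and at 0.165 to 0.255 CPM for 3 counts their ratios are limited by depth.

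With the replicate number as a block, 3673 genes were called, 1510 of them at least 2-fold different, and 3422 were shared with the fit without the block. Deviations of same-numbered LPS and hypoxia libraries from their group means had correlations of 0.104, -0.009 and 0.039 for numbers 1, 2 and 3. The main fit did not pair the samples by number. The correlation of GC content with a library's deviation fell with the number in both groups. For libraries 1, 2 and 3 it was 0.33, 0.1 and -0.34 with LPS and 0.23, -0.02 and -0.19 with hypoxia. Whether the numbers mark a pairing or a batch was not tested. Among named genes Cxcl10 alone lost its call under the block.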

Other observations

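Several genes outside the lists above, chosen after their values were seen, also separated the groups. Complement component C3, the central protein of the complement cascade, had 7993, 8980.3 and 9002 CPM with LPS, against 1169, 1109.7 and 1349.8 CPM with hypoxia (log2 fold change 2.84 ± 0.17, adjusted p = 8.2e-12). Procr, the receptor of protein C, had 335, 309 and 182 CPM with LPS, against 15.4, 12.9 and 13.8 CPM with hypoxia (log2 fold change 4.29 ± 0.19, adjusted p = 1.35e-14), and Serpinb9, an inhibitor of granzyme B, averaged 285 ± 12.4 CPM with LPS and 26.0 ± 2.85 CPM with hypoxia (log2 fold change 3.46 ± 0.16, adjusted p = 8.83e-15). The LPS libraries lay above the hypoxia libraries for all 3.

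In the other direction, Dpp4, a surface peptidase that trims chemokines, had 6.78, 8.84 and 6.55 CPM with LPS, against 93.9, 82.5 and 83.5 CPM with hypoxia (log2 fold change -3.55 ± 0.28, adjusted p = 1.61e-10). Il1r2, the decoy receptor that binds interleukin-1 without signalling, had 3.24, 1.70 and 2.58 CPM with LPS, against 61.4, 46.0 and 58.2 CPM with hypoxia (log2 fold change -4.46 ± 0.72, adjusted p = 0.000136), and Tnfsf13b, the B cell survival factor BAFF, averaged 14.1 ± 2.43 CPM with LPS and 139 ± 3.52 CPM with hypoxia (log2 fold change -3.30 ± 0.22, adjusted p = 6.3e-12). None of these overlapped between the groups. Itga4, an integrin chain that binds Vcam1, averaged 141 ± 24.2 CPM with LPS and 620.5 ± 32.1 CPM with hypoxia (log2 fold change -2.14 ± 0.13, adjusted p = 1.78e-12). Dnase1l3, a secreted nuclease, averaged 57.7 ± 11.9 CPM with LPS and 259 ± 8.75 CPM with hypoxia (log2 fold change -2.16 ± 0.20, adjusted p = 3.93e-09).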
